A study of Mus musculus with 2 samples.

Results

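The genes described here are 9 posterior Hox genes, Hoxd8, Hoxd9, Hoxd10, Hoxd11, Hoxd12, Hoxd13, Hoxb13, Hoxa11 and Hoxa13, chosen by gene symbol from 32285 genes counted per cell in colorectal tumours of mice. The table holds 30 other Hox genes, which serve as the comparison. The choice began with Hoxd11 and Hoxd13, whose ratio between the libraries in cancer cells had been seen to be among the largest, so the epithelial ratios below are a description and support nothing on their own. The question was whether the tumour pools differed in the position along the colon that these genes record.

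Each of the 2 libraries came from 1 pool of tumours, from wild-type mice (labelled WT) or from mice with a global loss of the kinase gene Stk25 (labelled STK25 wKO). Both groups had received azoxymethane, a carcinogen, and dextran sulphate sodium, which injures the colon, so the shared treatment gives tumours in inflamed colon. The number, age, sex and strain of the mice, the site of each tumour and the knockout allele are not given in the sources used here. The series text mentions a sort on mCherry signal, whose role is not described. Mice and tumours within a pool cannot be told apart, nor can genotype, pool and library.

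The WT-labelled library held 12542 cell barcodes and 38737373 UMIs (unique molecular identifiers, 1 per captured RNA molecule), and the wKO-labelled library 14168 barcodes and 66297749 UMIs. After filtering, 12270 and 13883 cells remained, with medians of 1383 and 2091 UMIs, and 230 barcodes occurred in both libraries (1.83% and 1.62%). Stk25 itself was at 118 and 127 UMIs per 1000000 (CPM) over all cells. The 3′ counts therefore give no check of the genotype, and the libraries are named by their labels throughout. Clusters carrying epithelial markers such as Epcam and Krt8 formed the epithelial class, with 2696 cells in the WT-labelled and 4959 in the wKO-labelled library. Clusters carrying fibroblast, pericyte or smooth muscle markers formed the fibroblast class, with 772 and 965 cells. With 1 library per group no test was possible, and all intervals below are 95% and cover counting error only.

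Hox genes encode homeodomain transcription factors that lie in clusters on several chromosomes, and their order along a cluster mirrors the order in which they are used from head to tail. The members with the highest numbers act in the hindgut, the genital tract, the tail and the distal limb. The adult gut keeps a regional Hox code in both epithelium and mesenchyme, and Hoxd13, Hoxa13 and Hoxb13 belong to the code of its distal end. The 6 HoxD members lie in a row on the plus strand of chromosome 2 in GRCm38, from Hoxd13 (74668310 to 74671599) to Hoxd8 (74704615 to 74707933). Hoxa13 (52257694 to 52260880) and Hoxa11 (52242106 to 52245810) are on the minus strand of chromosome 6, and Hoxb13 (96194316 to 96197447) is on the plus strand of chromosome 11.

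In epithelial cells the 6 HoxD members were all higher in the wKO-labelled library, whereas the HoxA members and Hoxb13 differed little. Hoxd11, Hoxd12 and Hoxd13, from the posterior end of the cluster, had the largest ratios. The summed HoxD members were at 23.7 CPM in the WT-labelled and 138 CPM in the wKO-labelled library, a log2 ratio of 2.54 (2.42 to 2.67). Of the 8 members with at least 50 UMIs over both libraries, 5 had a log2 ratio of at least 1, and of 14722 epithelial genes with as many UMIs 2.09% did. None of the 8 had a log2 ratio of -1 or lower, as 3.04% of all genes did. With the median ratio over genes as the scale, which shifts every ratio by 0.14, these shares were 2.60% and 2.20%. The median log2 ratio was 1.70 over those 8 members and -0.14 over all 14722 genes. These epithelial values include the ones that led to the choice of the genes. Neutrophil marker RNA in the epithelial class also differed, at 62.2 and 401 CPM summed over 6 markers with all 6 higher in the wKO-labelled library. Macrophage marker RNA there was at 78.2 and 204 CPM (7 of 8 higher), and the part of either in these values was not tested.

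Hoxd13, the last gene of the cluster, which patterns digits and the genital and anorectal end of the body, had 208 UMIs (9.20 CPM, 7.99 to 10.5) in the WT-labelled and 2316 (51.3 CPM, 49.2 to 53.4) in the wKO-labelled library. Its log2 ratio was 2.48 (2.27 to 2.69), and a UMI was found in 4.78% and 26.5% of epithelial cells. Hoxd11, which patterns the forearm and kidney together with Hoxa11, had 221 UMIs (9.77 CPM) and 3010 UMIs (66.6 CPM). For both genes the intervals of the libraries lay far apart. The log2 ratio of Hoxd11 was 2.77 (2.57 to 2.97), with 5.49% and 27.5% of cells carrying a UMI, and it was 1.74 after every cell was thinned to 1000 UMIs. Hoxd12, which lies between them and acts with Hoxd13 in the limb, was found at 22 UMIs (0.97 CPM) and 333 UMIs (7.37 CPM), for a log2 ratio of 2.92 (2.30 to 3.62), which became 1.62 as the mean over cells of each cell's CPM.

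The genes nearer the anterior side of the group had smaller ratios. Hoxd10, a patterning gene of the hindlimb and lumbar cord, had 61 and 416 UMIs (2.70 and 9.21 CPM), for a log2 ratio of 1.77 (1.38 to 2.18). Hoxd9 had 19 and 118 UMIs, a log2 ratio of 1.64 (0.93 to 2.42). Hoxd8 had 4 and 40 UMIs, too few for the count above, and its log2 ratio of 2.32 had an interval from 0.86 to 4.27. Among all epithelial genes ordered by ratio, Hoxd12 stood at rank 37, Hoxd11 at 42, Hoxd13 at 55, Hoxd10 at 114 and Hoxd9 at 132 of 14722. The members nearest to the limit of 1 on the log2 scale were Hoxd9 above it, at 1.64, and Hoxb13 below it, at 0.33. The interval of Hoxd9 held the limit, and its ratio fell to 0.97 at the lowest under the alternatives. The count of members past the limit thus depends on the processing.

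Hoxb13 is known from the prostate and the distal colon, and it differed far less than the HoxD genes. It had 3612 UMIs (160 CPM, 155 to 165) in the WT-labelled and 9041 (200.1 CPM, 196 to 204) in the wKO-labelled library. Its log2 ratio was 0.33 (0.27 to 0.38), and 31.1% and 42.2% of epithelial cells had a UMI. Hoxa13, needed for hindgut and genital development, went the other way with 446 UMIs (19.7 CPM) and 768 (17.0 CPM), for a log2 ratio of -0.21 (-0.38 to -0.04). Hoxa11, a gene of the uterus, kidney and limb, stood at 4.29 CPM in the first and 3.16 CPM in the second library, for a log2 ratio of -0.44 (-0.82 to -0.05). Exons of Hoxa11 overlap the antisense gene Hoxa11os, and those of Hoxd10 and Hoxd11 overlap the predicted gene Gm28309 on the same strand, so their counts are less certain.

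**Figure D1:**
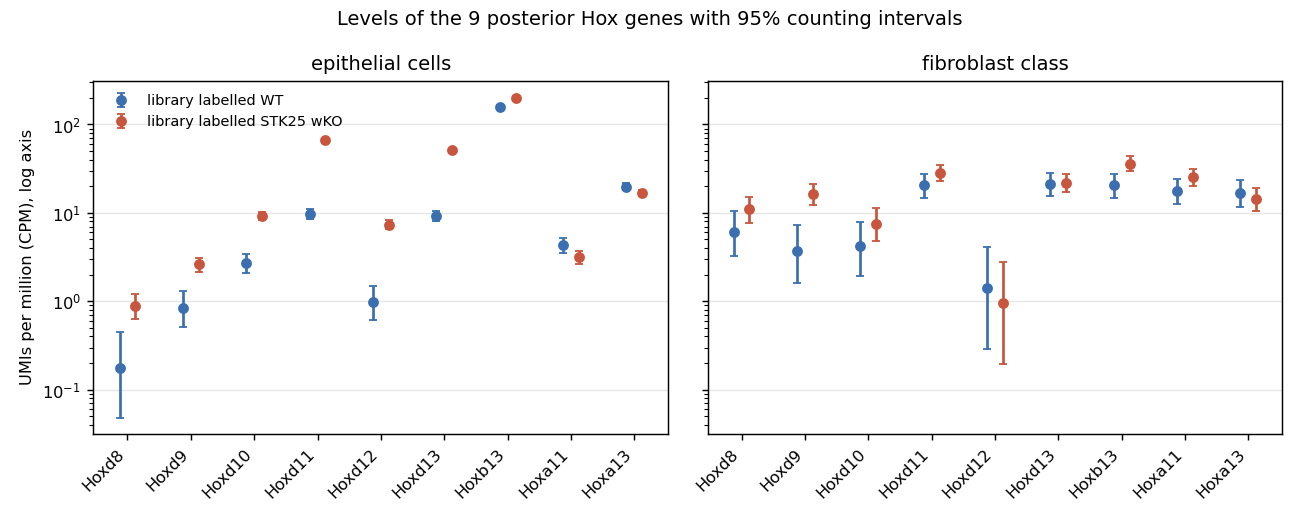
Level of each of the 9 genes (CPM, log axis) in epithelial cells and in the fibroblast class, by library, with 95% counting intervals. In epithelial cells Hoxd11 lay at 9.77 and 66.6 CPM and Hoxd13 at 9.20 and 51.3 CPM, whereas in the fibroblast class their intervals overlapped between the libraries.

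The stretches just upstream of the start sites are shown for the HoxD genes with the 3 largest ratios and for Hoxa13, the last gene of another cluster, which was not higher. RefSeq gave an entry for 8 of the 9 genes. Each line holds 250 bases before the start in GRCm38.p6, 5′ to 3′ on the gene's strand, with capitals marking TTTAT or its reverse complement ATAAA, the core read by posterior HOX and CDX proteins.
Hoxd13, chr2:74667975-74668224, plus strand: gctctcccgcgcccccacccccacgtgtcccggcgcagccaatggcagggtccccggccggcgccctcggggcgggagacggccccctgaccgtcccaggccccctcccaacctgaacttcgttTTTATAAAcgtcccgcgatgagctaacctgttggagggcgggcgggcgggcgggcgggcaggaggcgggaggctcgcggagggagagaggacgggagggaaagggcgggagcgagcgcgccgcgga
Hoxd12, chr2:74674763-74675012, plus strand: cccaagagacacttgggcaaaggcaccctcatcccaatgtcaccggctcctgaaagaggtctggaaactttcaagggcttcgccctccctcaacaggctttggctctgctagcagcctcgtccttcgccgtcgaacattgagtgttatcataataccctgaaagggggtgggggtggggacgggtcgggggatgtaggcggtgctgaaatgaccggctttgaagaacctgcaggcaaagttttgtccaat
Hoxd11, coding start, chr2:74682073-74682322, plus strand: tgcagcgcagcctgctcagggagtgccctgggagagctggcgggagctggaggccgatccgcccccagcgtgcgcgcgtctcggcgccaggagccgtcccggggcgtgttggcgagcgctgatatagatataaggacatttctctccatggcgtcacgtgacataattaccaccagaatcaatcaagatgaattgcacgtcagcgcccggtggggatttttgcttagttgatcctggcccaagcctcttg
Hoxa13, chr6:52260881-52261130, minus strand: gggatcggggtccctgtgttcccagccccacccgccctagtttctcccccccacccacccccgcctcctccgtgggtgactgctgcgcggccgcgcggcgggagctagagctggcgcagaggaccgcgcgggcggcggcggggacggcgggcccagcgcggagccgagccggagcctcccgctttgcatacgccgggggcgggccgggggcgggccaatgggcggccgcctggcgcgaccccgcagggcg

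Of these windows the one of Hoxd13 alone held the motif, as 2 overlapping matches that also form TATAAA on each strand. Over both strands, 37.3% of 32851 promoter windows of the same length held TTTAT, 12.4% held TATAAA and 33.8% held CCAAT. The windows of Hoxd13 and Hoxa13 were 74.4% and 80.0% G or C and held 31 and 35 CpG, against medians of 52.4% and 6 over all windows. Hoxd12 and the coding start of Hoxd11 were at 55.6% and 60.4% G or C. CCAAT occurred 2 times in the window of Hoxd12 and 1 time each in those of Hoxd13 and Hoxa13. The HoxD genes with the largest ratios thus differed among themselves in motif and base composition, and in G and C Hoxd13 lay nearest to Hoxa13. The other annotated start of Hoxd11 had 2 matches to TTTAT in its window and 44.8% G or C.

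Along the other Hox clusters, the epithelial ratio changed with the cluster and with the place in it. HoxA genes from Hoxa9 to Hoxa13 summed to 165 and 149 CPM, for a log2 ratio of -0.14 (-0.20 to -0.08), the same as the median of all epithelial genes. Hoxa9 itself, the HoxA gene with the most UMIs, was at 93.5 and 91.1 CPM. In contrast, the middle of the HoxB cluster was higher in the wKO-labelled library, and Hoxb4 to Hoxb8 summed to 8.36 and 25.9 CPM, for a log2 ratio of 1.63 (1.41 to 1.86). Hoxb8 had 18 and 204 UMIs, a log2 ratio of 2.50 (1.81 to 3.29), and Hoxb6 118 and 598 UMIs, a log2 ratio of 1.34 (1.06 to 1.64). Hoxb9, between these genes and Hoxb13, was lower, at 24.1 and 20.1 CPM. HoxC genes had 0 UMIs in the WT-labelled and 4 in the wKO-labelled epithelial cells. Of the 23 Hox genes with at least 50 UMIs, 12 lay above a log2 ratio of 0, and 10 had a ratio of at least 1, all in HoxB or HoxD.

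**Figure D2:**
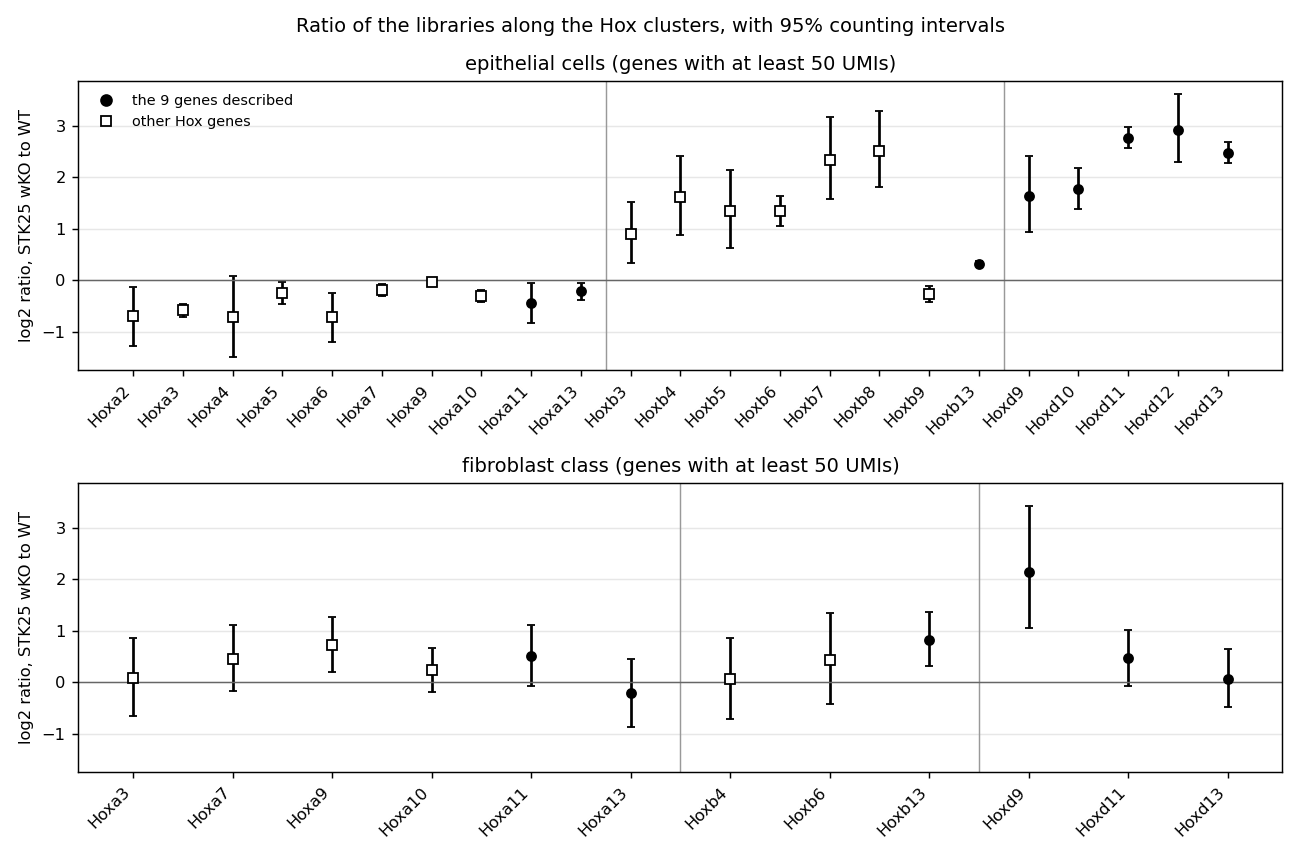
Log2 ratio of the wKO-labelled to the WT-labelled library for each Hox gene with at least 50 UMIs, ordered along the clusters, with 95% counting intervals, in epithelial cells (top) and the fibroblast class (bottom). Filled points are the genes described here. In epithelial cells HoxA genes lay between -0.72 and -0.04, Hoxb4 to Hoxb8 between 1.34 and 2.50 and Hoxd9 to Hoxd13 between 1.64 and 2.92.

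Beside the HoxD cluster, the homeobox gene next to Hoxd13 was higher too, while the flanking genes of other kinds were nearly level. That homeobox gene, Evx2, had 12 and 119 epithelial UMIs, for a log2 ratio of 2.31 (1.45 to 3.30). Lnpk and Mtx2, which flank the cluster and encode proteins of the endoplasmic reticulum and of mitochondria, had log2 ratios of 0.07 and 0.21. Hoxd3 and Hoxd4, at the anterior end of the cluster, had 3 and 14 and 8 and 16 UMIs, and their intervals included 0. Beside the HoxA cluster, Skap2 had a log2 ratio of -0.15, Evx1 of -0.34, Hoxa11os of -0.53, Hottip of -0.83 and Hoxaas3 of 0.35. Evx1, Evx2, Hottip, Hoxd3 and Hoxd4 were named after their values were seen. Of the 10 neighbouring and non-coding genes with at least 50 UMIs, Evx2 was the 1 with a log2 ratio of at least 1.

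The HoxD difference was present in each of the 5 epithelial clusters with at least 50 cells in both libraries. These clusters are named by a leading gene: Htr4 (with Cftr and Esrrg), Saa1 (with Krt20 and Duoxa2), Mdga2 (with Nkd1 and Wif1), Reg3b (with Gpx2 and Birc5) and Muc2 (with Spink4 and Agr2, genes of goblet cells). The log2 ratio of Hoxd13 ran from 1.32 in the Muc2 cluster to 2.89 in the Mdga2 cluster, and that of Hoxd11 from 1.45 to 3.48 in the same clusters. Both intervals lay above 0 in 5 of 5 clusters. These clusters are parts of the class whose ratios led to the choice of these genes, in the same 2 libraries. Their agreement is therefore a description and no support. Hoxd10 had an interval above 0 in 4 of 5, and Hoxd12 in 4 of 5. In the Muc2 cluster Hoxd12 had 6 and 12 UMIs, and its interval included 0.

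Within the wKO-labelled library the genes differed in which clusters held them. Hoxd11 reached 131 CPM in the Saa1 cluster, against 22.7 CPM in the Muc2 cluster. Hoxd13 stayed between 41.5 and 60.0 CPM across all 5. Hoxd12 was highest in the Mdga2 cluster, at 16.7 CPM. As a share of the UMIs of Hoxd11 and Hoxd13 together, Hoxd11 gave 69.7% (67.7 to 71.7) in the Saa1 cluster, 55.4% in the Mdga2, 48.7% in the Reg3b, 39.8% in the Htr4 and 33.8% (28.5 to 39.3) in the Muc2 cluster. In the WT-labelled library the share was likewise highest in the Saa1 cluster, at 61.6% (53.2 to 69.6), and lowest in the Muc2 cluster, at 31.7% (18.1 to 48.1), and these 2 intervals did not overlap.

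Hoxb13 and the HoxA members did not keep a direction across these clusters. The log2 ratio of Hoxb13 was above 0 in 4 of 5 and -0.20 (-0.31 to -0.09) in the Mdga2 cluster, where it was at 176 and 153 CPM. In the Htr4 cluster Hoxb13 was at 88.7 and 91.3 CPM, the lowest level of the 5 in each library. Hoxa13 lay below 0 in 3 of 5 clusters with an interval that left out 0, and above 0 in the Saa1 and Muc2 clusters with intervals that included it. Hoxa11 was clearly lower in the Htr4 cluster, with 24 UMIs in the WT-labelled and 5 in the wKO-labelled library, a log2 ratio of -2.18 (-3.93 to -0.76).

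**Figure D3:**
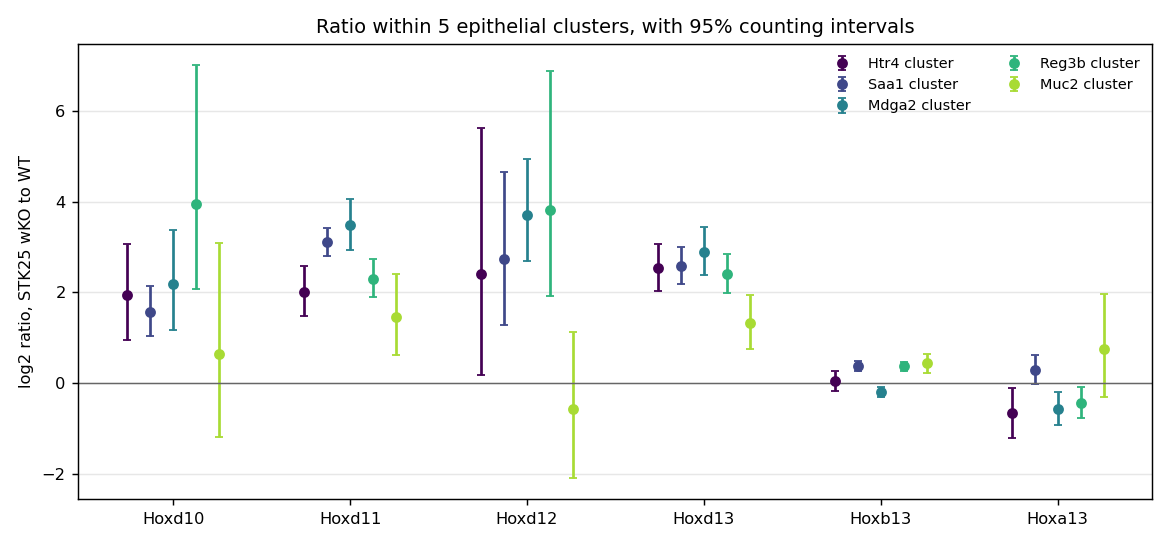
Log2 ratio of the wKO-labelled to the WT-labelled library for 6 genes within each of 5 epithelial clusters, with 95% counting intervals. All 5 points of Hoxd11 and of Hoxd13 lay above 0, from 1.45 to 3.48 and from 1.32 to 2.89, while Hoxb13 and Hoxa13 fell on both sides of 0.

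Per cell, HoxD UMIs were found in a minority of epithelial cells of both libraries, and more often in the wKO-labelled one. At least 1 HoxD UMI was found in 9.38% (8.31 to 10.5) and 43.3% (41.9 to 44.6) of epithelial cells, and at least 5 in 0.82% and 8.07%. The most in a single cell was 14 and 27 UMIs. After each cell was thinned to 1000 UMIs, to remove the effect of depth, Hoxd13 was found in 0.84% (0.52 to 1.28) and 5.06% (4.45 to 5.72) of epithelial cells. This left out 192 and 193 shallower cells. Hoxd11 at the same depth was found in 1.84% and 5.81% of cells. A UMI of any HoxD member was then found in 2.92% (2.29 to 3.65) and 12.2% (11.3 to 13.2) of epithelial cells. In B cells, where it may be background, the shares were 0.72% and 5%.

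The HoxD genes occurred together in the same cells in both libraries. Among epithelial cells with at least 5000 UMIs of the WT-labelled library, Hoxd11 was found in 46 of the 82 cells with a Hoxd13 UMI (56.1%) and in 3.64% of the 1044 without. In the wKO-labelled library the shares were 64.1% of 1004 cells and 31.1% of 1285 cells. Median depth was 14526 against 10406.5 UMIs in the first library and 17806.5 against 11555 in the second, so cells with a Hoxd13 UMI were deeper. Hoxd12 was found in 17.1% of WT-labelled cells with a Hoxd13 UMI and in 0.19% of those without. Hoxb13 was found in 75.6% and 86.7% of the cells with a Hoxd13 UMI, and in 54.1% and 58.9% of those without.

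Hoxd11, Hoxd13 and Hoxb13 were found less often in epithelial cells with Hoxb8 than in other epithelial cells of the wKO-labelled library. Of its cells with at least 5000 UMIs, 110 had a Hoxb8 UMI and 2179 did not, with medians of 13614 and 13796 UMIs. Hoxb6, the neighbour of Hoxb8 in its cluster, was found in 60.0% (50.2 to 69.2) and 7.57% of them. Hoxd11 went the other way, in 10.9% (5.77 to 18.3) of cells with Hoxb8 and 47.3% (45.2 to 49.4) of those without. Hoxd13 was found in 15.5% and 45.3%, and Hoxb13 in 31.8% and 73.1%. For Hoxa13, at 16.4% (10.0 to 24.6) and 22.7% (20.9 to 24.5), the intervals overlapped. Hoxa9, nearly level between the libraries, was also found less often with Hoxb8, in 49.1% (39.4 to 58.8) and 63.2% (61.1 to 65.2).

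Inside single clusters, of which only Reg3b and Htr4 were looked at, this difference was clear for Hoxd11, Hoxd13, Hoxb13 and Hoxa9 in the Reg3b cluster. It was not resolved in the Htr4 cluster. In the Reg3b cluster of the wKO-labelled library, among cells with at least 5000 UMIs, Hoxd11 was found in 3 of the 62 with Hoxb8 (4.84%, 1.01 to 13.5) and in 45.8% of the 762 without, with medians of 13614 and 15432 UMIs. Hoxb13 was found in 21.0% (11.7 to 33.2) and 78.6% (75.5 to 81.5) of these cells. Hoxd13 was found in 11.3% (4.66 to 21.9) and 49.2% (45.6 to 52.8), and Hoxa9 in 43.5% (31.0 to 56.7) and 67.8% (64.4 to 71.2). For Hoxa13, at 14.5% and 24.0%, the intervals overlapped. In the Htr4 cluster, with 17 cells with Hoxb8 and 122 without, Hoxd11 was found in 11.8% (1.46 to 36.4) and 29.5% (21.6 to 38.4), and Hoxb13 in 23.5% (6.81 to 49.9) and 45.1% (36.1 to 54.3). The intervals of both genes overlapped there, as did those of Hoxd13 and Hoxa9. In the WT-labelled library 14 epithelial cells of that depth had a Hoxb8 UMI, and Hoxd11 was found in 1 of them. That number is too small to show whether the genes were apart there. The pair was looked at because the HoxB and HoxD genes were both higher in the same library, so these shares are a description.

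**Figure D4:**
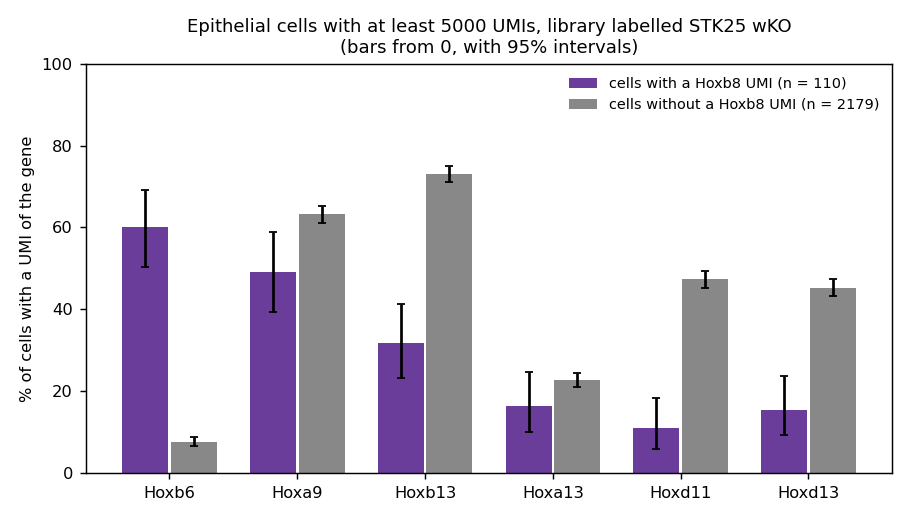
Share of epithelial cells with a UMI of each gene (%, bars from 0, with 95% intervals) among cells of the wKO-labelled library with at least 5000 UMIs, split by whether they had a Hoxb8 UMI (110 cells) or not (2179 cells). Hoxb6 was found in 60.0% and 7.57%, Hoxb13 in 31.8% and 73.1%, Hoxd11 in 10.9% and 47.3% and Hoxd13 in 15.5% and 45.3%. Hoxa9 was found in 49.1% and 63.2%, and Hoxa13 in 16.4% and 22.7% with intervals that overlapped.

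In the fibroblast class the HoxD difference was smaller than in the epithelium. The summed HoxD members were at 57.0 and 86.2 CPM, for a log2 ratio of 0.60 (0.29 to 0.92), which lay 1.95 (1.60 to 2.28) below that of the epithelium. The epithelial ratio includes the values that led to the choice of the genes, so this difference only describes. One of the 6 members with at least 50 UMIs, Hoxd9, had a log2 ratio of at least 1, as 2.38% of 10292 genes of the class did. None had a log2 ratio of -1 or lower, against 1.39% of all genes. The median log2 ratio was 0.48 over those 6 members and 0.01 over all genes.

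Hoxd13 was nearly level in the fibroblast class, with 45 and 70 UMIs (21.0 and 22.0 CPM), for a log2 ratio of 0.07 (-0.49 to 0.64). In B cells Hoxd13 was at 1.74 and 26.4 CPM, so the fibroblast level stood above B cells in the WT-labelled library only. The ratio may therefore mix signal with background. For Hoxd11, with 44 and 90 UMIs (20.5 and 28.3 CPM), the log2 ratio was 0.46 (-0.07 to 1.02). The ratios of both genes lay below their epithelial ratios, by 2.41 (1.80 to 3.01) for Hoxd13 and by 2.31 (1.72 to 2.88) for Hoxd11. The genes were chosen by those epithelial ratios, which the intervals do not cover, so these differences only describe. Hoxd9, a gene of the lower trunk and hindlimb, had 8 and 52 UMIs (3.74 and 16.4 CPM), for a log2 ratio of 2.13 (1.05 to 3.42). Hoxd8 and Hoxd10 had log2 ratios of 0.86 and 0.85 with intervals that included 0, and Hoxd12 had 3 UMIs in each library.

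Hoxa11 was at 17.7 and 25.2 CPM in the fibroblast class, above its epithelial level in both libraries, with a log2 ratio of 0.50 (-0.07 to 1.10). Its ratio in epithelium lay 0.94 (0.25 to 1.65) below that. Hoxa13 had 36 and 46 UMIs, a log2 ratio of -0.22 (-0.88 to 0.46), close to its epithelial ratio. Hoxb13 had 44 and 115 UMIs (20.5 and 36.2 CPM), for a log2 ratio of 0.82 (0.30 to 1.35). Epithelial marker RNA in the class moved with it, from 1610 to 2793 CPM summed over 10 markers, all 10 of them higher in the wKO-labelled library. Car1 and Cdx1, epithelial genes, were likewise at 65.4 and 175 CPM and at 13.5 and 38.7 CPM in the class. Mesothelial marker RNA stood at 3.74 and 57.6 CPM (4 of 4 markers higher) and neutrophil marker RNA at 77.0 and 1811 CPM (6 of 6 higher). Macrophage marker RNA was at 208 and 671 CPM (8 of 8 higher), and the pericyte or smooth muscle markers, whose cells belong to the class, were at 1500 and 2593 CPM (8 of 9 higher). The part of these cells in the Hox values was not tested.

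The fibroblast clusters carried different members. Hoxa11 and Hoxa13 were highest in the Adamdec1 cluster, at 29.6 and 43.3 CPM and at 28.2 and 27.1 CPM. Hoxd9 was highest in the Dcn cluster (with C3 and Slit3) of the wKO-labelled library, at 25.5 CPM against 5.10 CPM in the WT-labelled one. In that cluster Hoxd11 had 23 and 64 UMIs, a log2 ratio of 0.93 (0.22 to 1.68), whereas in the Adamdec1 cluster it had 15 and 20 UMIs, a log2 ratio of 0.03 with an interval that included 0. In the pericyte and smooth muscle cluster, led by Acta2, the summed HoxD members had 9 and 35 UMIs and an interval that included 0. Transcription factors of gut mesenchyme were close to level in the class, with a median log2 ratio of -0.14 over the 6 with at least 50 UMIs. Tcf21 among them was at 277 and 303 CPM and Foxf1 at 74.7 and 59.2 CPM.

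Hoxd11 and Hoxd13 UMIs were also found in blood cells, where free RNA in the droplets can give a background, whose part was not tested. In B cells, with medians of 950 and 1227 UMIs, Hoxd13 was found in 0.19% and 3.52% of cells and Hoxd11 in 0.39% and 2.60%. At 1000 UMIs per cell, Hoxd13 was found in 0.14% of WT-labelled and 2.27% (1.10 to 4.14) of wKO-labelled B cells, and in 2.08% and 2.30% of the fibroblast class, where the shares before thinning were 5.18% and 5.91%. Thinning left out 148 and 139 cells of the fibroblast class and 856 and 213 B cells. Hoxd11 at that depth was found in 0.14% and 2.50% of B cells and in 2.08% and 2.66% of the fibroblast class. In the WT-labelled library both genes stood above B cells in the fibroblast class, and in the wKO-labelled library their shares could not be told from that background. Hoxb13 was found in 2.24% and 2.06% of the fibroblast class and in 4.33% and 6.36% of B cells, so its fibroblast share did not stand above that of B cells. Its log2 ratio in the class turned to -0.22 after thinning, but it reached 1.42 and lay above 0 under 14 of 15 alternatives. Hoxd9 was found in 0.32% and 1.69% (0.93 to 2.83) of the fibroblast class at that depth and in no B cell of the wKO-labelled library (0 of 440, an upper limit of 0.83%). Epithelial cells of the wKO-labelled library stood above their B cells for Hoxd11 and for Hoxd13, with no overlap of the intervals. In the WT-labelled library this held for Hoxd11 but not for Hoxd13, where 0.84% (0.52 to 1.28) of epithelial cells and 0.14% (0.0037 to 0.80) of B cells overlapped, so the WT-labelled epithelial share of Hoxd13 was not told from background at this depth. With the mean UMIs per B cell subtracted, the log2 ratio of the summed HoxD members was 2.54 in epithelium and 0.30 in the fibroblast class.

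**Figure D5:**
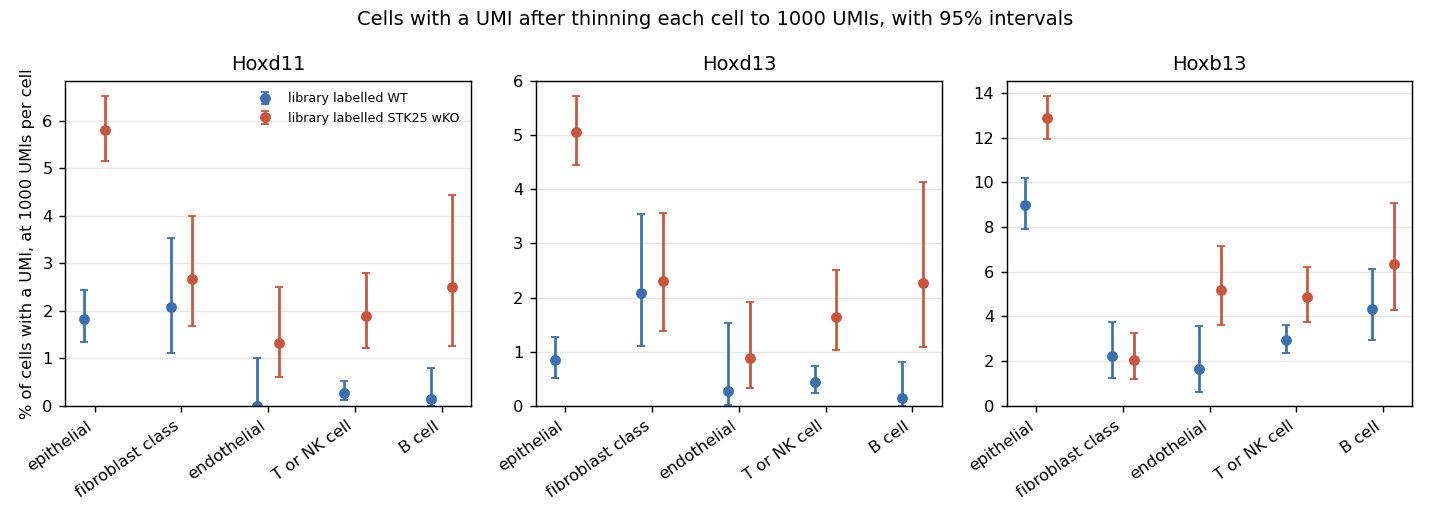
Share of cells with a UMI of Hoxd11, Hoxd13 or Hoxb13 (%, axis from 0) after each cell was thinned to 1000 UMIs, by class and library, with 95% intervals. Epithelial cells of the wKO-labelled library stood highest for Hoxd11 (5.81%) and Hoxd13 (5.06%), and the fibroblast class there (2.66% and 2.30%) lay beside B cells (2.50% and 2.27%).

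In endothelial cells Hoxd8 was higher than in epithelium or the fibroblast class, whereas Hoxd11 and Hoxd13 were near the level of blood cells. Hoxd8 had 36 and 87 UMIs (29.1 and 35.6 CPM), for a log2 ratio of 0.29 (-0.29 to 0.89), and it had no UMI in B cells, where a count of 0 allows up to 1.74 and 3.30 CPM. Hoxd9 stood at 25.9 CPM in the first and 10.6 CPM in the second library, for a log2 ratio of -1.29 (-2.09 to -0.49), the opposite direction to epithelium and fibroblasts, but after thinning it was found in 2 and 6 cells (0.55% and 0.89%), so no order is read from it. Hoxd11 had 1 and 31 UMIs and Hoxd13 2 and 23, and in the wKO-labelled library their levels of 12.7 and 9.40 CPM lay below those of B cells (18.7 and 26.4 CPM).

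The order of the classes by Hoxd13 level differed between the libraries. In the WT-labelled library the fibroblast class was highest at 21.0 CPM (15.3 to 28.1), followed by epithelium at 9.20 CPM, the unnamed clusters at 8.25, macrophages at 5.05, T or NK cells at 4.39, B cells at 1.74, endothelium at 1.62 and dendritic cells at 1.20. Neutrophils had no UMI, which allows up to 9.96 CPM, and neither had glia or plasma cells. In the wKO-labelled library epithelium was highest at 51.3 CPM, followed by the unnamed clusters at 48.4 (39.5 to 58.8), which could not be told from it. Glia (3 UMIs) followed at 34.2 CPM, B cells at 26.4, the fibroblast class at 22.0, T or NK cells at 19.9, neutrophils at 18.3, macrophages at 14.1, plasma cells at 11.9, endothelium at 9.40 and dendritic cells at 5.93. From B cells to macrophages each interval overlapped that of the next. The unnamed clusters had medians of 682 and 767.5 UMIs, and one of them held Epcam in 70.9% of its cells, against 64.6% in the median cluster.

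Factors that act with posterior HOX proteins were level or lower in the wKO-labelled library. Of the 9 cofactors of the MEIS and PBX families, 8 had at least 50 epithelial UMIs, and none had a log2 ratio of at least 1 in size. Pbx3 stood at 31.8 CPM in the first and 17.0 CPM in the second library, for a log2 ratio of -0.90, and Meis2 had a log2 ratio of -0.84. In the fibroblast class Meis2 was at 388 and 259 CPM. Polycomb and Trithorax genes, whose products keep Hox genes closed or open, had a median log2 ratio of -0.27 over 11 genes in epithelium, against -0.14 over all genes. Of 6 retinoic acid genes, which act upstream of Hox genes in the embryo, Aldh1a1 had a log2 ratio of 1.01 and Aldh1a2 of -1.52, and the median was -0.10.

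Other genes of colon position did not share 1 direction. Car1, a carbonic anhydrase of colonocytes, stood at 603 CPM in the first and 1324 CPM in the second library, for a log2 ratio of 1.13. Cdx1 and Cdx2, the homeobox genes of intestinal identity, were at 115 and 158 CPM and at 42.3 and 37.4 CPM, log2 ratios of 0.46 and -0.17. Gata4, of the upper small intestine, had 1 and 0 epithelial UMIs. Of the 7 genes of the small intestine or stomach list, 2 had at least 50 epithelial UMIs. These were Onecut2, at 31.7 and 31.8 CPM, and Fabp6, an ileal bile acid binding protein, at 3.23 and 5.44 CPM with a log2 ratio of 0.75 (0.37 to 1.15). All 4 squamous genes with at least 50 UMIs, as found at the anal margin, had a lower summed level in the wKO-labelled library, from Krt5 at 12.2 and 4.18 CPM to Krt4 at 2.92 and 2.37 CPM. The interval of Krt4 included 0. The share of cells with a UMI went the other way for Krt13 (5.04% and 8.05%) and Krt14 (6.01% and 7.38%), so no order is read for these genes.

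By pattern, the genes other than Hox most like the summed HoxD members were Bok, Cdc42ep5, S100a16, Pmm1 and Gas6. Likeness was Pearson's r of log2(CPM + 1) over 41 profiles of a cluster in a library, from 0.73 for Bok to 0.69 for Gas6, among 13855 genes. Profiles of 1 library share its depth and free RNA, so these values only describe. None of the 5 came near the HoxD members in the ratio of the libraries, with S100a16 at 539 and 741 epithelial CPM, for a log2 ratio of 0.46, and Pmm1 at 29.3 and 44.7 CPM, for a log2 ratio of 0.61.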

How the data were processed

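Single-cell RNA was measured in 2 libraries of 10x Genomics 3′ chemistry, 1 per group, each from pooled tumours. The matrices the authors deposited hold UMI counts that were not normalised, with no barcode under 500 UMIs. Their headers name Cell Ranger 7.1.0, and the submitters' processing notes name mm10 and Seurat. Which version of the chemistry was used is left unstated.

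A cell needed 200 or more detected genes and no more than 25% mitochondrial UMIs. Both libraries were clustered together without batch correction, on 2000 variable genes from which the 39 Hox genes were kept out, with 30 principal components, 20 neighbours and Leiden resolution 1. A cluster was named where at least 3 listed markers were each in 10% or more of its cells and 5 percentage points above the median cluster. The numbers of this rule were set after the data were seen. Clusters 2 and 3, of low depth, stayed unnamed. Doublets were kept, and an alternative removed the cells with the highest Scrublet scores (9.81% and 11.1%).

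UMIs were summed per class and divided by the class total (CPM), not by gene length. Intervals are 95%: exact Poisson for levels, exact conditional binomial for ratios and Clopper-Pearson for shares. They cover counting error only, and with 1 library per group no test was made. The intervals were also run on simulated counts drawn independently under the Poisson model that they assume. That run cannot show how they hold where UMIs clump within cells, tumours or mice. Shares of all genes past the 2-fold limit cover genes with at least 50 UMIs over both libraries. The genes described, the marker and gene lists and the naming rule were chosen with earlier results of these data known. Named are all 9 genes, other Hox genes with at least 50 UMIs, up to 6 genes of each list with the most UMIs plus defining genes near 0, and the 5 genes most alike in pattern. Some genes of the lists are not reported here. The analysis of Hoxb8 cells and its limit of 5000 UMIs were chosen after values were seen. Alternatives varied the cell filter, resolution, class borders, depth, weights, scale and count limits. Positions are from GENCODE M21 and promoters from RefSeq, both GRCm38. The tools were Python 3.11.15 with scanpy 1.11.5, scikit-learn 1.9.0, leidenalg 0.10.2, igraph 0.11.9, pandas 2.3.3, scipy 1.17.1, numpy 2.4.6 and matplotlib 3.10.9.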

Additional observations from a re-analysis of the deposited data

Results flagged for a closer look

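Hoxd9 had ratios of opposite direction in different classes. Its log2 ratio was 1.64 in epithelial cells, 2.13 in the fibroblast class and 3.43 in T or NK cells (1 and 5 UMIs, with an interval from 0.27 to 8.99), but -1.29 in endothelial cells. Each interval left out 0. The difference between the classes was not tested, as there was 1 library per group. In endothelial cells thinned to 1000 UMIs, Hoxd9 was found in 0.55% of cells of the WT-labelled and 0.89% of the wKO-labelled library, so the share and the level did not have the same order there.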

How the results depend on the processing

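The log2 ratio of the summed HoxD members stayed above 0 in both classes under all 15 alternatives, from 2.01 to 2.68 in epithelium and from 0.30 to 0.91 in the fibroblast class. In epithelium 3 of them moved it beyond its interval: it was 2.09 with every cell thinned to 1000 UMIs, 2.01 as the mean over cells of each cell's CPM, and 2.68 with the median ratio over genes as the scale. The 5 epithelial members past the fold became 3 of 5 tested after thinning, where fewer members reached 50 UMIs, and lay between 4 and 6 otherwise. In the fibroblast class the 1 member past the fold became 2 with the stricter cell filter, at resolution 0.5 and after subtraction of B cell UMIs, and after thinning no member reached 50 UMIs, so no count was had. Shares of all genes were taken only for the count limits, the added CPM and the median scale. Member counts under the other alternatives, thinning among them, have no such share beside them and are not read further. The fibroblast log2 ratio of Hoxb13 turned to -0.22 after thinning, reached 1.42 at its highest and lay above 0 under 14 of 15. That of Hoxd13 lay between -0.90 and 0.22 and above 0 under 12 of 15. The epithelial log2 ratio of Hoxd11 lay between 1.74 and 2.98. Counting all unnamed clusters with the epithelium, an alternative chosen after the data were seen, gave 2.54. With at least 10 UMIs, 4.03% of epithelial genes were past the fold upwards, with at least 1 UMI in each library 4.71%, and with 1 CPM added 1.07%. In the fibroblast class these shares were 5.89%, 7.64% and 2.0%. On the median ratio as the scale, 2.60% of epithelial genes were past the fold upwards and 2.20% downwards. No paired analysis was possible because each group had 1 library. Depth limited the scarce members most: Hoxd12 had 3 UMIs per library in the fibroblast class.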
